A study of Mus musculus with 6 samples.

Results

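Glycolytic isozymes of germ cells and their somatic partners were compared in the mouse across 3 tissues: testis, epididymis and the cells of fat known as its stromal vascular fraction (SVF). The set holds 10 genes, chosen by their symbols in the platform annotation, out of 18307 genes that could be named on the array. It comprises 4 pairs, Pgk2 with Pgk1, Gapdhs with Gapdh, Ldhc with Ldha, and Pgam2 with Pgam1, together with Gk2 and Hk1. All 10 were measured on all 6 arrays. Gapdh was spotted 257 times and every other gene in the set once. Gk (old symbol Gyk), the somatic partner of Gk2, was not analysed here.

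The study hybridised 3 total RNA samples, 1 from testis, 1 from epididymis and 1 from the SVF of adipose tissue, on 6 two-colour arrays. Each pair of tissues was run on 2 arrays with Cy5 and Cy3 exchanged. The labels name no strain, age, number of animals, treatment or fat depot for any tissue. SVF is what remains of digested fat once the fat-laden adipocytes are removed, a mix of stromal, vascular and blood cells. Testis holds germ cells from stem cell to spermatid beside Sertoli and Leydig cells, and the epididymis is the secretory duct in which sperm mature and are stored. Values are log2 ratios. The first array of a comparison carried the numerator tissue in Cy5, and the sign of the dye-exchanged array was turned to the same direction. The direction of the deposited ratios is likely rather than stated, and log2 is the conventional reading of a base that is not given. Means are given ± SD over the 2 arrays (n = 2 hybridisations of the same RNAs), so the SD covers dye and hybridisation and not differences between animals. No test between tissues can be made. The word higher is used of a gene that passed a 2-fold difference on each of the 2 arrays with the same sign, called the 2-fold rule.

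The tissues matched their labels for most markers. In testis against SVF, 10 of 11 late spermatid markers were higher in testis, 4 of 4 Leydig markers were higher in testis, and 5 of 5 SVF mesenchyme markers and 4 of 4 macrophage markers were higher in SVF. The 6 measured epididymal duct markers were all higher in epididymis than in both other tissues. After turning, the arrays of a pair correlated over all probes with r = 0.86 where testis was set against SVF, 0.64 where epididymis was set against SVF and 0.77 where it was set against testis, as a description over probes that are not independent. The median SD of a gene lay between 0.33 and 0.37 log2 units in the 3 comparisons. All 3 measured erythroid markers were higher in SVF than in either of the other tissues. Sertoli markers were higher in testis than in SVF for 3 of 5. Sox9, at 0.39 ± 0.62, and Gata4, at -0.84 ± 0.08, missed the rule. Of 4 adipocyte markers, 3 were higher in SVF than in testis. In testis over SVF Fabp4 stood at -5.14 ± 1.04, Lpl at -4.51 ± 0.35, Adipoq at -1.22 ± 0.07 and Plin1 at -0.76 ± 1.17. The source of these values in a fraction without adipocytes was not tested.

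Glycolysis splits glucose into pyruvate in the cytosol and yields ATP without oxygen. Most cells use 1 housekeeping set of its enzymes. Spermatogenic cells instead switch on separate genes for several steps, and their products are built into the sperm tail, where glycolysis along the fibrous sheath feeds the flagellum. Pgk2 is a retrogene, an intronless copy of the X-linked Pgk1, and the X chromosome is silenced during male meiosis. Gapdhs encodes the sperm form of glyceraldehyde-3-phosphate dehydrogenase, the step before phosphoglycerate kinase, and is bound to the fibrous sheath. Ldhc encodes the testis lactate dehydrogenase, which interconverts pyruvate and lactate. Pgam2 encodes the phosphoglycerate mutase of muscle, which male germ cells also use, whereas Pgam1 is the widespread form. Gk2 encodes a germ cell glycerol kinase, a glycolysis side entry that feeds the triose phosphates. Hexokinase 1, from Hk1, phosphorylates glucose at the entry of the pathway and has germ cell transcripts from the same gene.

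The promoters of 2 pairs are shown, Pgk1 with Pgk2, whose ratios went opposite ways in testis against SVF, and Ldha with Ldhc, both of which were higher in testis there. Each is the 250 bases before the first start listed by RefSeq in GRCm38.p6, with capitals for 3 motifs searched on both strands, the GC box (GGGCGG), the core of the cyclic AMP response element (TGACGT) and the CCAAT box (CCAAT). The Pgk1 bases lie at chrX:106186850-106187099 on the plus strand and the Pgk2 bases at chr17:40208610-40208859 on the minus strand. The Ldha bases lie at chr7:46845554-46845803 and the Ldhc bases at chr7:46861013-46861262, both on the plus strand.
Pgk1: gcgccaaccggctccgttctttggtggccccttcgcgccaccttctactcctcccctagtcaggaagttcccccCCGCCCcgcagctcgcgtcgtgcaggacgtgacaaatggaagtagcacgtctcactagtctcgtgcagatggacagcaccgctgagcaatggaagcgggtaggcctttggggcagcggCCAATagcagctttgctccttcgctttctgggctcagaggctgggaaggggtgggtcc
Pgk2: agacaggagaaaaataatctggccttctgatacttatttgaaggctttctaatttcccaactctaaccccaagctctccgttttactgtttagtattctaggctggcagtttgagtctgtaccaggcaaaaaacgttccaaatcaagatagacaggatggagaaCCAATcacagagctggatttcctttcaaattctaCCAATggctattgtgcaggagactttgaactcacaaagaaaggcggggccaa
Ldha: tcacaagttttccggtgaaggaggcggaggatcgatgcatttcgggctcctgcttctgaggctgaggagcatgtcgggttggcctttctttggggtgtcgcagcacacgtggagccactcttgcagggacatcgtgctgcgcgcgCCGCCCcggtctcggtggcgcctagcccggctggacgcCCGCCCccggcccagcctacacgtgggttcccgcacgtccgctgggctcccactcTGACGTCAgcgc
Ldhc: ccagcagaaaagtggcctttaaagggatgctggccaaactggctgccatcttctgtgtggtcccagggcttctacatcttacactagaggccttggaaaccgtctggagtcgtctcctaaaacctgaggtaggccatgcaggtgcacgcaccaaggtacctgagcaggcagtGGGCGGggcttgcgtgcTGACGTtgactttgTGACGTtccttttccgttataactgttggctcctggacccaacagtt
Ldha and Ldhc are neighbours, with starts 15459 bases apart. In the 250 bases shown, CpG dinucleotides numbered 17 for Pgk1 and 3 for Pgk2, and 25 for Ldha and 8 for Ldhc.

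The CpG count separated the germ cell genes from their partners in every pair. Over the window that RefSeq lists, 250 bases before to 50 after the first listed start, it was 24 for Pgk1 and 4 for Pgk2. It was 12 for Gapdh and 4 for Gapdhs, 30 for Ldha and 9 for Ldhc, and 30 for Pgam1 and 1 for Pgam2. Gk2 had 5. The 5 germ cell genes thus held at most 9 and the 4 partners at least 12, on a background where 56.5% of 32851 mouse promoters held at most 9 and the median was 7. Fewer than 12 were held by 60.4% of promoters, and both limits were read from these same genes. Hk1 held 1 at its first listed start and 20 at its second. At their second listed starts Ldha held 13, Ldhc 3 and Gapdhs 1. Low CpG content is common among promoters, so the split is a description of 10 genes.

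**Figure D1:**
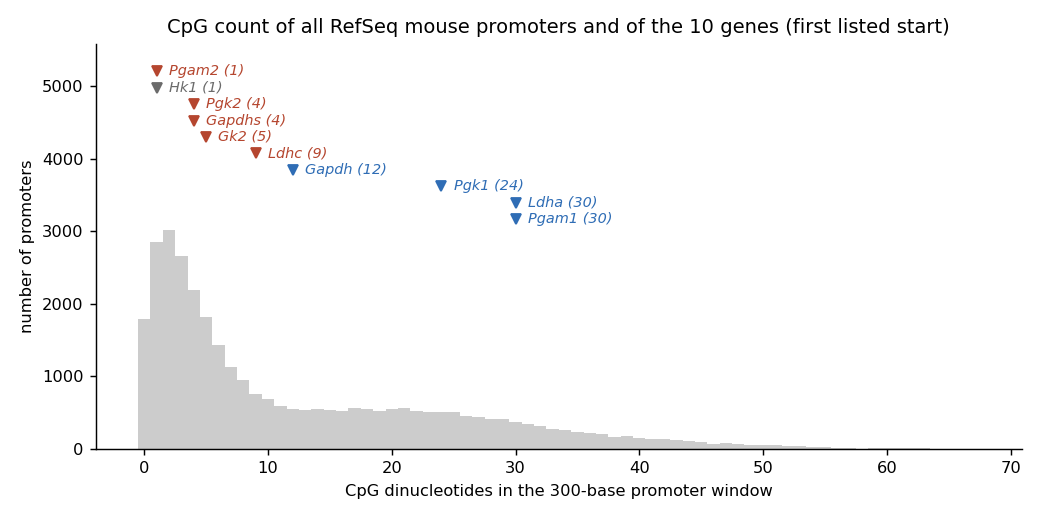
Number of RefSeq mouse promoters (vertical axis) by their count of CpG dinucleotides in the 300-base window (horizontal axis), with triangles for the 10 genes at their first listed start (red, germ cell genes; blue, somatic partners; grey, Hk1). Germ cell genes lie between 1 and 9 and somatic partners between 12 and 30, and the heights of the triangles carry no value.

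At the first listed start of each gene, motif matches followed no single division. GC boxes, present in 35.7% of all promoters of this length, were found 5 times in the Pgk1 window, 4 of them after the start, and 3 times in Ldha and 2 times in Pgam1. Among germ cell genes the GC box was found in Ldhc, once. The response element core is present in 7.51% of promoters. It occurred 2 times in Ldhc, at positions -61 and -47 from the start, and once in Gapdhs, at position 39 after the start. Ldha also held 2 matches, which overlap as one palindrome read on both strands at -12 and -10. CCAAT boxes, in 37.4% of promoters, occurred 2 times each in Pgk2 and Pgam2 and once in Pgk1. None of the 3 motifs was found at the second listed starts of Gapdhs, Ldha, Ldhc and Hk1. All motif counts are letter matches and not sites shown to be bound.

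In testis against SVF, every gene of the set differed by at least 2-fold on both arrays. Testis was higher for 7 of the 10 genes, the 5 germ cell genes with Hk1 and Ldha, beside 20.7% of all genes that met the rule in that direction. SVF was higher for 3, Pgk1, Gapdh and Pgam1, beside 16.0% of all genes. In bulk RNA, fewer cells of a type and less RNA per cell cannot be told apart.

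Pgk2 (NCBI gene 18663) stood at log2 ratios of 6.38 and 4.79 on the 2 arrays of testis and SVF, a mean of 5.59 ± 1.13 or 48.1-fold higher in testis. Pgk1 (gene 18655) stood at -2.07 and -2.38, a mean of -2.22 ± 0.22 or 4.67-fold higher in SVF. The 2 phosphoglycerate kinase genes lay on opposite sides of 0 on both arrays. The difference between their log2 ratios on the same array, here called the isozyme switch, is unchanged by a constant subtracted from the whole array. It was 8.45 and 7.17, a mean of 7.81 ± 0.91, so the Pgk2 to Pgk1 ratio was 225-fold higher in testis than in SVF. Whether a probe also bound the transcript of the partner gene was not tested in any pair.

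Gapdhs (gene 14447) stood at 5.22 and 4.40 in testis over SVF, a mean log2 ratio of 4.81 ± 0.58 or 28.0-fold. Gapdh (gene 14433), a common housekeeping reference, stood at -1.61 and -2.46 as the mean over its 257 spots, a mean log2 ratio of -2.04 ± 0.60 or 4.10-fold higher in SVF. Both arrays gave nearly the same switch for this pair, 6.82 and 6.86, although each gene's own values differed between the arrays by more than this. The Gapdhs to Gapdh ratio was 115-fold higher in testis.

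Pgam2 (gene 56012) stood at 5.24 and 4.51 in testis over SVF, a mean log2 ratio of 4.87 ± 0.52 or 29.3-fold. Pgam1 (gene 18648) stood at -1.24 and -1.79, a mean of -1.51 ± 0.39 or 2.85-fold higher in SVF. The switch was 6.47 and 6.29, an 83.5-fold shift of the Pgam2 to Pgam1 ratio towards testis. Of 15 skeletal muscle fibre markers, which matter because Pgam2 is also the muscle enzyme, 0 were higher in testis and 3 in SVF, and the median log2 ratio was -0.10.

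The lactate dehydrogenase pair departed from the other 3. Ldhc (gene 16833) stood at 3.86 and 1.60 in testis over SVF, a mean log2 ratio of 2.73 ± 1.60 or 6.65-fold. Ldha (gene 16828), the partner, was also higher in testis, at 1.48 and 1.21, a mean of 1.34 ± 0.19 or 2.54-fold. Both genes of the pair were thus on the same side of 0. Their switch was 2.38 on one array and 0.40 on its dye exchange, a mean of 1.39 ± 1.40, which is smaller than its own spread. Ldhc had the widest gap between arrays among the 10 genes. Prm1, a protamine gene that was the second nearest gene to Ldhc over the 6 arrays, had 4.49 and 1.26 in the same order of arrays.

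Gk2 (gene 14626) had the highest ratio of the set in testis over SVF, 6.20 and 5.81, a mean log2 ratio of 6.0 ± 0.28. Hk1 (gene 15275), which has no separate germ cell partner gene in the set, stood at 2.50 and 2.19, a mean of 2.34 ± 0.21 or 5.08-fold higher in testis. The transcript form that the Hk1 probe reads is not known here. Over all genes, 99.9% lay below Gk2 in this comparison and 99.6% below Pgk2, whereas 90.4% lay below Ldhc and 88.2% below Hk1.

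**Figure D2:**
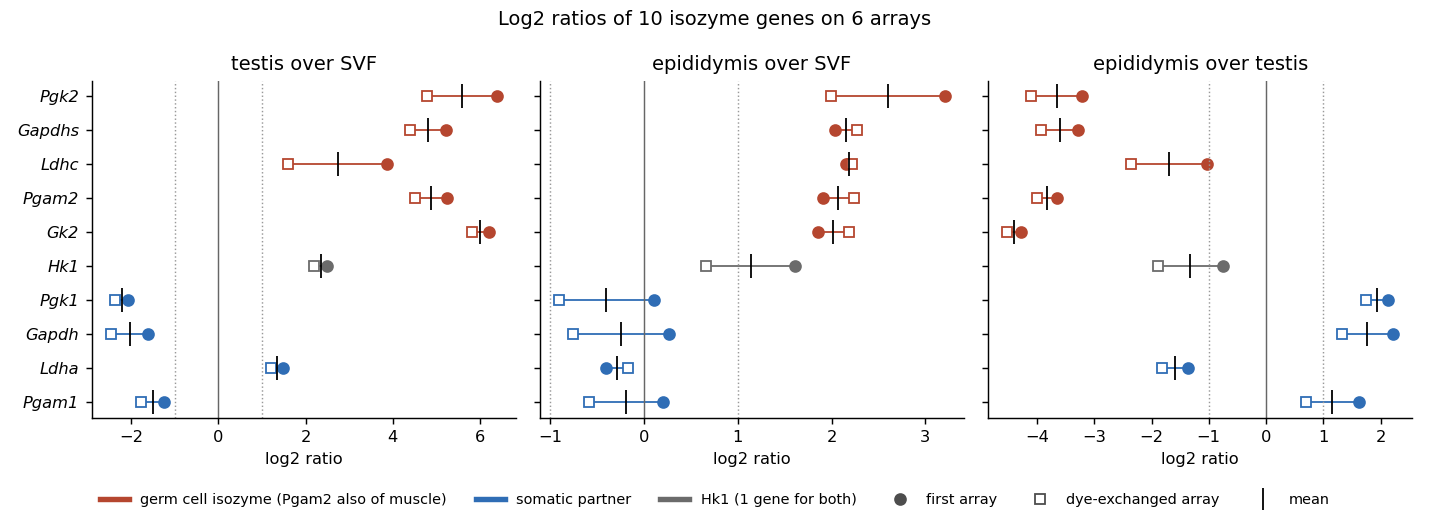
Log2 ratio (horizontal axis) of the 10 genes in the 3 comparisons, with a filled circle for the first array, an open square for the dye-exchanged array and a bar for their mean. Dotted lines mark the 2-fold rule, and the horizontal scales differ between panels. Pgk1, Gapdh and Pgam1 lie opposite the germ cell genes in testis over SVF, and Ldha lies on their side.

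In epididymis against SVF, the 5 germ cell genes were each higher in epididymis, and the other 5 genes met the rule in neither direction. These 5 of 10 stand beside 10.2% of all genes that were higher in epididymis, and the 0 of 10 higher in SVF beside 8.70%. Pgk2 stood at 3.21 and 1.99, a mean log2 ratio of 2.60 ± 0.86 or 6.06-fold. Gapdhs stood at 2.03 and 2.27, a mean of 2.15 ± 0.17 or 4.45-fold. Ldhc stood at 2.15 and 2.22, a mean of 2.19 ± 0.05 or 4.55-fold. For these 3 genes the lower of the 2 arrays still stood near 4-fold or above, at 1.99 for Pgk2. Pgam2 stood at 1.91 and 2.23, a mean log2 ratio of 2.07 ± 0.23 or 4.20-fold. Gk2 stood at 1.86 and 2.18, a mean of 2.02 ± 0.23 or 4.05-fold. The means of the 5 genes spanned 0.58 log2 units here, against 3.27 in testis over SVF.

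The somatic partners were near even between epididymis and SVF. Pgk1 stood at 0.10 and -0.91, a mean log2 ratio of -0.40 ± 0.71. Gapdh stood at 0.27 and -0.76, a mean of -0.24 ± 0.73, and Pgam1 at 0.20 and -0.59, a mean of -0.20 ± 0.56. In these 3 genes the dye-exchanged arrays fell on opposite sides of 0. Ldha stood at -0.40 and -0.17, a mean log2 ratio of -0.29 ± 0.16. Hk1, the entry enzyme, stood at 1.61 and 0.66, a mean of 1.14 ± 0.67, and met the 2-fold rule on 1 array only. The switch of all 4 pairs was positive on both arrays, at means of 3.00 ± 0.15 for Pgk2 and Pgk1, 2.40 ± 0.90 for Gapdhs and Gapdh, 2.47 ± 0.12 for Ldhc and Ldha, and 2.27 ± 0.79 for Pgam2 and Pgam1.

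Markers of germ cells, and of some other cells, moved with the germ cell genes in this comparison. Of the 11 late spermatid markers, 9 were higher in epididymis than in SVF. Their median log2 ratio was 2.14, in a range from 1.32 to 2.76. Of 5 pachytene spermatocyte markers, 3 were higher in epididymis, with a median of 1.74. Of 5 Sertoli markers, 3 were higher in epididymis, with Aard at 2.15 ± 0.37, Tsx at 1.67 ± 0.13 and Sox9 at 1.29 ± 0.06. Cldn11, at 1.18 ± 0.39, and Gata4, at -0.17 ± 0.27, did not meet the rule. Tsx and Aard were also higher in testis than in SVF and in epididymis. Sox9 met the rule in neither comparison of testis, at 0.39 ± 0.62 in testis over SVF and 0.91 ± 0.55 in epididymis over testis. Of the 4 measured Leydig markers, 0 met the rule, and their median was 0.60. Ratios do not give levels, so it is not known which of these markers were above background in epididymis or in SVF. Of the 15 skeletal muscle markers, 7 were higher in epididymis and 1 in SVF, with a median of 1.20 and Acta1 at 5.02 ± 0.53, beside the Pgam2 value of 2.07. Epididymal duct markers were higher in epididymis for 6 of 6, with a median of 6.99, and epithelium markers for 3 of 3, with a median of 4.37. Smooth muscle markers were higher there for 2 of 5, with a median of 0.90. In the other direction, 4 of 5 SVF mesenchyme markers and 4 of 4 macrophage markers were higher in SVF. The part of all these cells in the values of the germ cell genes was not tested.

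In epididymis against testis, 6 genes were higher in testis, beside 18.0% of all genes, and 2 were higher in epididymis, beside 14.3%. The first were the 5 germ cell genes and Ldha, and the second were Pgk1 and Gapdh. Gk2 stood at -4.27 and -4.52, a mean log2 ratio of -4.40 ± 0.17, so the epididymis held 4.75% of the testis level. Pgam2 stood at -3.65 and -4.00, a mean of -3.83 ± 0.25 or 7.04% of the testis level. Pgk2 stood at -3.22 and -4.10, a mean of -3.66 ± 0.62 or 7.93%, and Gapdhs at -3.28 and -3.93, a mean of -3.60 ± 0.46 or 8.22%. These 4 genes lay within 0.79 log2 units of each other. Ldhc, at -1.03 and -2.36, a mean log2 ratio of -1.70 ± 0.94, stood at 30.9% of the testis level and lay outside that range on both arrays. Only 0.235% of all genes had a lower ratio than Gk2 in this comparison, and 14.4% had a lower ratio than Ldhc.

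Markers of germ cells and of several other cells moved with the 2 groups of genes here too. Of the late spermatid markers 7 of 11 were higher in testis than in epididymis, with a median of -2.74, and of the pachytene markers 4 of 5, with a median of -3.92. Sertoli markers were higher in testis for 3 of 5, with a median of -2.11, and Leydig markers for 3 of 4, with a median of -2.92. Epididymal duct markers were higher in epididymis for 6 of 6, with a median of 5.92. Epithelium markers were higher there for 3 of 3, with a median of 3.02, and smooth muscle markers for 3 of 5, with a median of 2.02. SVF mesenchyme markers were higher in epididymis for 5 of 5, with a median of 2.89, and skeletal muscle markers for 9 of 15, with a median of 1.58. Their part in the values of the set was not tested.

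Among the partners, Pgk1 stood at 2.13 and 1.75 in epididymis over testis, a mean log2 ratio of 1.94 ± 0.27 or 3.83-fold higher in epididymis. Gapdh stood at 2.22 and 1.32, a mean of 1.77 ± 0.63 or 3.41-fold. Pgam1 stood at 1.62 and 0.70, a mean of 1.16 ± 0.65, and missed the rule on the dye-exchanged array. Ldha went the other way, at -1.37 and -1.82, a mean log2 ratio of -1.60 ± 0.32, so the epididymis held 33.1% of the testis level. Hk1, at -0.75 and -1.89, a mean of -1.32 ± 0.80, missed the rule on the first array. The share of the testis level found in epididymis was thus close for Ldha and Ldhc, within their SDs, and their switch was 0.34 and -0.54, on either side of 0. The other 3 switches were negative on both arrays, with means of -5.59 ± 0.36 for Pgk2 and Pgk1, -5.38 ± 0.18 for Gapdhs and Gapdh, and -4.99 ± 0.41 for Pgam2 and Pgam1.

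**Figure D3:**
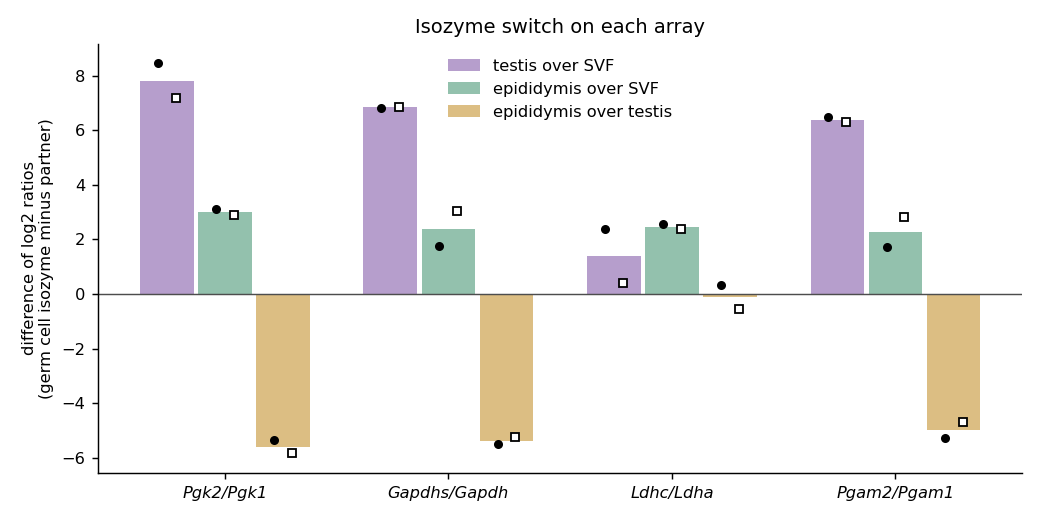
Isozyme switch, the log2 ratio of the germ cell gene minus that of its somatic partner on the same array (vertical axis), for the 4 pairs and 3 comparisons. Bars are means of 2 arrays, circles the first array and squares the dye-exchanged array. The 3 pairs other than Ldhc and Ldha show means from 6.38 to 7.81 in testis over SVF and from -5.59 to -4.99 in epididymis over testis.

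A least-squares fit over the 6 arrays placed each gene in the 3 tissues relative to its own mean. The 5 germ cell genes and Hk1 had the order testis, epididymis, SVF from highest to lowest. For Gk2 the step from testis to epididymis was 4.26 log2 units and the step from epididymis to SVF 1.88, with a standard error of 0.15 for a tissue ratio. For Ldhc the same steps were 1.31 and 1.80, with a standard error of 0.60. Pgk1, Gapdh and Pgam1 had the reverse order, SVF, epididymis, testis. In these 3 genes SVF and epididymis were separated by 0.36, 0.25 and 0.25 log2 units, against standard errors of 0.23, 0.33 and 0.27, which cover dye and hybridisation only and give no test between tissues. The gap was smaller than this error for Gapdh and Pgam1. Ldha alone in the set had the order testis, SVF, epididymis, with the lower step at 0.28 and a standard error of 0.12.

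The 3 comparisons did not close equally well. The sum of ratios around the loop should be 0, and over all genes its median was 0.01 with an SD of 0.56. It was -1.15 for Ldhc, -1.03 for Pgam2, -0.95 for Gapdhs, -0.67 for Pgk2 and -0.41 for Gk2, against values between -0.16 and 0.12 for Pgk1, Gapdh, Ldha, Pgam1 and Hk1. The loop missed in the same direction for all 5 germ cell genes. The late spermatid markers other than Cabyr also missed in that direction, so it was not particular to the set. Ldhc and Pgam2 lay outside the band of 1 log2 unit that held 92.4% of genes. In the direction of the miss, the direct ratio of testis over SVF was smaller than the sum of the 2 steps through epididymis. For Ldhc that sum was 3.88 log2 units, against 2.73 measured directly. Equally, epididymis over SVF was smaller through testis than on its own arrays. Through testis it was 1.04 for Ldhc against 2.19 directly, 1.04 for Pgam2 against 2.07, and 1.20 for Gapdhs against 2.15. Gk2 stood at 1.61 against 2.02 and Pgk2 at 1.93 against 2.60. The folds given above for epididymis over SVF thus rest on the direct arrays, and for Ldhc and Pgam2 the route through testis came to about 2-fold. The shares of the testis level given for epididymis rest on direct arrays too. Through SVF, epididymis over testis was -0.55 for Ldhc against -1.70 directly, -2.80 for Pgam2 against -3.83, and -2.65 for Gapdhs against -3.60. By that route Pgk2 stood at -2.99 against -3.66 and Gk2 at -3.99 against -4.40, so all 5 shares were larger.

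**Figure D4:**
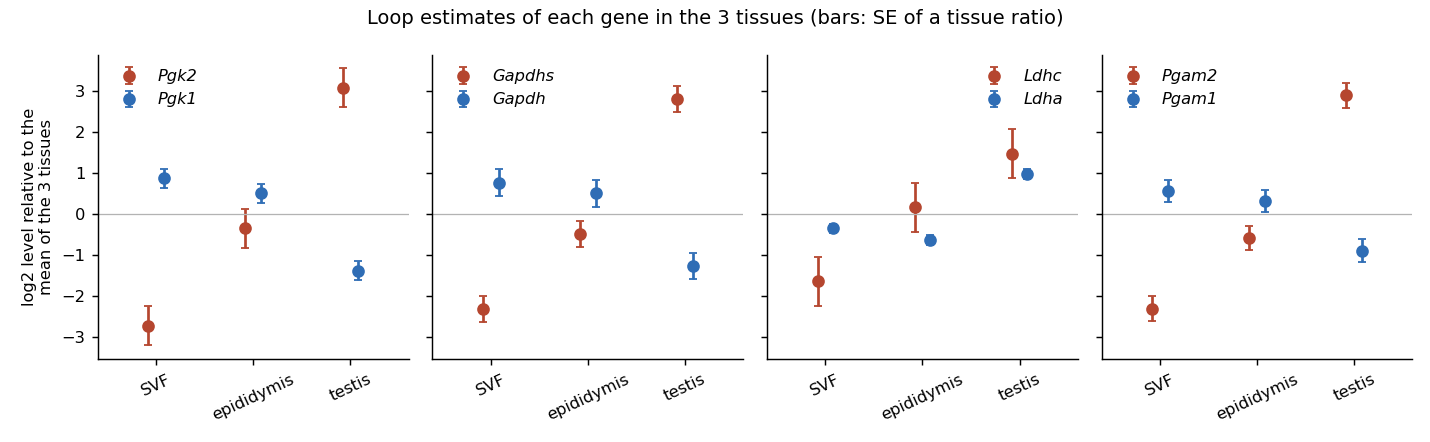
Level of each gene in SVF, epididymis and testis relative to the gene's mean over the 3 tissues, in log2 units (vertical axis), from the fit over 6 arrays, for the 4 pairs (red, germ cell gene; blue, somatic partner). Bars are the standard error of a ratio between tissues. In the lactate dehydrogenase panel both genes are highest in testis, and in the other 3 panels they cross.

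The 257 spots of Gapdh gave a view of the error within an array that the single spots of the other genes do not. In testis over SVF their median log2 ratio was -1.67 with testis in Cy5 and -2.45 after the dye exchange, with SDs over spots of 0.39 and 0.34. SVF was higher by the 2-fold rule at 252 of 257 spots. In epididymis over SVF, medians were 0.24 and -0.71, and 0 of 257 spots met the rule in either direction. In epididymis over testis, medians were 2.23 and 1.38, with 242 spots higher in epididymis and 1 in testis. The first array exceeded the dye-exchanged array at 257, 256 and 252 of the 257 spots in the 3 comparisons, by medians of 0.79, 1.00 and 0.88 log2 units. The arrays of a pair thus differed by more than the spots within an array did, and in each comparison the gene read higher where the numerator tissue was in Cy5.

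Gapdh ratios also varied with the probe number. Probe numbers form 48 runs of 528, and the place of a run within each set of 4 ordered the spots. In epididymis over SVF, the median of Gapdh went from 0.14 at the first place to 0.43 at the fourth on the first array and from -0.48 to -1.05 on the dye-exchanged array. Over all 25344 probes the same medians went from -0.03 to 0.38 and from 0.23 to -0.22. The opposite drift of the 2 arrays gave a negative correlation across Gapdh spots, r = -0.76 over 257 spots, which was -0.39 after each run was centred on its own median. No mean of a gene of the set moved by more than 0.36 log2 units with this centring, which was added after the data were seen. Pgk1, Pgk2, Gapdhs and Hk1 lie at the fourth place. With each run centred, the SD of Pgk2 in testis over SVF was 0.63 in place of 1.13 at a mean log2 ratio of 5.52, and that of Ldhc was 2.01 in place of 1.60 at a mean of 2.61. Over the 30 values of 10 genes and 3 comparisons, the SD was smaller in 16 and larger in 14.

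**Figure D5:**
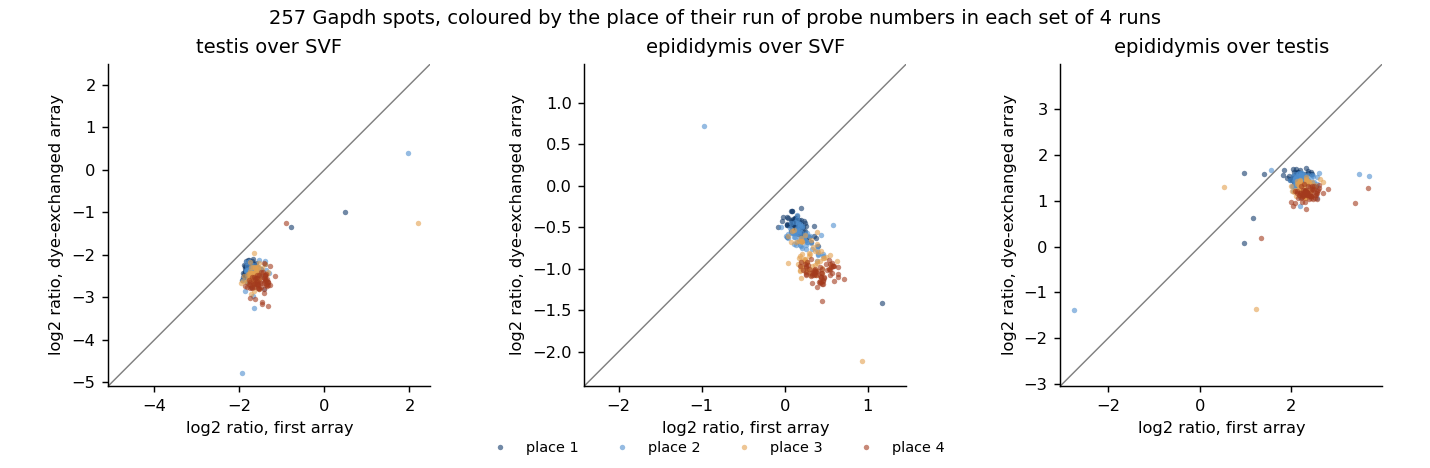
Log2 ratio of each of the 257 Gapdh spots on the first array (horizontal axis) and the dye-exchanged array (vertical axis) in the 3 comparisons, coloured by the place of the spot's run of probe numbers in each set of 4 runs. The line marks equal values, and nearly all spots lie below it. In epididymis over SVF the 4 places are spread along a falling diagonal.

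The patterns most like each gene were found as the smallest Euclidean distance over the 6 log2 ratios. For Gapdhs they were Rnf151 at 0.22, Hmgb4 at 0.38 and Spem2 at 0.41. For Pgam2 they were Adam18 at 0.41, Gapdhs at 0.42 and Kif2b at 0.44, the only case in which another gene of the set was among the 3 nearest. For Gk2 they were Hoatz at 0.34, Piwil1 at 0.59 and Gtsf1 at 0.62, and for Pgk2 Dcun1d1 at 0.56, Cmtm2b at 0.63 and Tmem144 at 0.66. Ldhc had no near neighbour, with Pgp at 1.12, Prm1 at 1.19 and 4933416I08Rik at 1.23. For the partners, the nearest genes were Serinc1 at 0.30 for Pgk1, Olfr1156 at 0.31 for Gapdh, Cep192 at 0.31 for Ldha and Nipsnap2 at 0.32 for Pgam1. For Hk1 the nearest was Pick1 at 0.45.

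The other enzymes of glycolysis met the rule in each direction at shares near or below those of all genes in testis against SVF. Of 24 listed, 19 were measured, and in that comparison 3 were higher in testis and 1 in SVF, beside 20.7% and 16.0% of all genes. The median log2 ratio was -0.03, beside 0.00 over all genes. Those higher in testis were Pfkm, the muscle-type phosphofructokinase, at 2.40 ± 0.44, Aldoc, an aldolase, at 1.87 ± 0.08, and Ldhb, the heart-type lactate dehydrogenase subunit, at 1.45 ± 0.35. The hexokinase Hk2 was higher in SVF, at -1.78 ± 0.10, opposite to Hk1. Aldoa, the widespread aldolase, stood at -0.17 ± 0.12.

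In epididymis against SVF, 3 of these 19 enzymes were higher in epididymis and 2 in SVF, beside 10.2% and 8.70% of all genes. Their median was 0.33, beside 0.07 over all genes. The D-lactate dehydrogenase gene Ldhd stood at 3.11 ± 0.77 and Ldhb at 2.65 ± 0.35, both means above that of Pgk2 at 2.60 ± 0.86, and Pfkfb2, which sets the level of a phosphofructokinase activator, at 1.76 ± 0.75. Pfkp, the platelet-type phosphofructokinase, stood at -1.50 ± 0.52 and Bpgm, of the red cell bisphosphoglycerate shunt, at -1.38 ± 0.23. The erythroid markers were also higher in SVF, and their part in the Bpgm value was not tested. In epididymis against testis, 2 were higher in epididymis and 3 in testis, beside 14.3% and 18.0% of all genes. Ldhd at 2.70 ± 0.01 and Hk2 at 2.18 ± 0.12 were higher in epididymis, and Pfkm at -1.89 ± 0.69, Aldoc at -1.39 ± 0.33 and Bpgm at -1.06 ± 0.09 in testis, with a median of -0.14 beside 0.00. Among the lactate dehydrogenase genes, Ldhb and Ldhd were thus higher in epididymis than in SVF, beside Ldhc, whereas Ldha was not.

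Germ cell isozymes of the mitochondrial and late steps behaved in part like the set. Of 10 listed, 7 were measured, and 5 were higher in testis than in SVF, beside 20.7% of all genes. The median log2 ratio was 2.97. Cyct, the testis cytochrome c, stood at 5.60 ± 1.29, and Cox7b2 and Cox6b2, subunits of cytochrome c oxidase, at 5.35 ± 1.36 and 3.58 ± 0.58. Ldhal6b, a lactate dehydrogenase-like retrogene, stood at 2.97 ± 0.68, and Eno4, the sperm tail enolase, at 1.30 ± 0.13. Pdha2, the testis pyruvate dehydrogenase subunit, did not meet the rule, at -0.27 ± 0.84, nor did Cox8c, at 0.71 ± 0.31. In epididymis against SVF, 2 of the 7 were higher in epididymis, Cox7b2 at 2.30 ± 0.76 and Ldhal6b at 1.38 ± 0.03, beside 10.2% of all genes, and the median was 0.29. Cyct, at 0.29 ± 1.37, was on either side of 0 on the 2 arrays. In epididymis against testis, 5 of the 7 were higher in testis, beside 18.0% of all genes, with a median of -2.55.

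Of the 8 listed partners of these genes, 6 were measured. In testis against SVF, 3 were higher in SVF, beside 16.0% of all genes. These were Cox7b at -3.09 ± 0.25, Pdha1 at -2.66 ± 1.55 and Cox8a at -2.26 ± 0.13, with a median log2 ratio of -1.72. In epididymis against SVF 0 met the rule, with a median of 0.40, and in epididymis against testis 4 were higher in epididymis, beside 14.3% of all genes, with a median of 2.13. The Cox7b2 and Cox7b switch in testis over SVF was 9.22 and 7.65, a mean of 8.43 ± 1.11, above that of Pgk2 and Pgk1. For Pdha2 and Pdha1 it was 4.07 and 0.69, where Pdha1, the X-linked gene, was lower in testis and Pdha2 met the rule in neither direction.

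Genes around glycerol and lactate were the last list, with 14 of 15 measured. In testis against SVF, 5 were higher in testis and 2 in SVF, beside 20.7% and 16.0% of all genes, and the median log2 ratio was 0.48. The fructose carrier Slc2a5 stood at 5.55 ± 0.50 and the lactate and pyruvate carrier Slc16a7 at 5.28 ± 0.05. Gpd2, the mitochondrial glycerol-3-phosphate dehydrogenase that takes up the product of glycerol kinase, stood at 3.37 ± 1.09, the glucose carrier Slc2a3 at 2.29 ± 0.28 and the glycerol kinase relative Gk5 at 1.71 ± 0.49. The glucose carriers Slc2a4 and Slc2a1 were higher in SVF, at -1.39 ± 0.12 and -1.20 ± 0.20. In epididymis against SVF, 2 were higher in epididymis, Slc2a5 at 2.45 ± 0.12 and Gpd1 at 1.51 ± 0.62, and 0 in SVF, beside 10.2% and 8.70% of all genes, with a median of 0.38. In epididymis against testis, 5 were higher in testis and 1, Slc2a4 at 1.67 ± 0.73, in epididymis, beside 18.0% and 14.3% of all genes, with a median of -0.17. Slc16a7 and Slc2a5 were at -4.14 ± 0.09 and -3.86 ± 0.59 there, between the means of Gk2 at -4.40 and Gapdhs at -3.60.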

How the data were processed

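Gene expression was read from the authors' deposited table of 1 log ratio per probe and array, taken as log2, for 25344 probes on 6 arrays. What base, background correction, normalization and sign were used is not given in the sources used here. Cy5 over Cy3 was assumed from the titles, which name the Cy5 tissue first. Dye-exchanged arrays were negatively correlated as deposited, which shows that ratios run the same way by dye but not which dye is the numerator. With the assumed sign, most tissue markers lay in the labelled tissues. Intensities were not used here, so signal over background is unknown. The small number of arrays limits precision. The platform annotation, whose symbols can be old, listed 21112 probes, of which 20456 were matched to mouse RefSeq genes (GRCm38.p6) by gene ID and 220 by symbol. Another 406 were unmatched and 30 had several genes, and none of these was named. Spots of a gene were averaged. RefSeq promoters of all 10 genes were found.

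The members and lists were chosen with earlier results of these data known. Named genes were all members, up to 4 genes of each list with the largest mean ratio in size per comparison and those meeting the 2-fold rule against the list's median, plus Aldoa, Eno4, Gk5, Cox8c, Cyct, Pdha2 and the marker genes given, named after their values were seen. The 3 nearest genes came from the 6 ratios. The alternatives were array centring, loop and indirect estimates, other size rules, single Gapdh spots, single arrays and natural logarithms. Scripts in Python 3.11.15, pandas 2.3.3 and numpy 2.4.6 were tested on simulated data.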

Additional observations from a re-analysis of the deposited data

How the results depend on the processing

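Members higher in testis than in SVF numbered 7 under every alternative tried but the 4-fold rule, which left 5. That rule also left 1 of 3 higher in SVF than in testis, 2 of 5 higher in epididymis than in SVF, and 0 of 2 higher in epididymis than in testis. With 2-fold on the mean alone, Hk1 and Pgam1, which miss the rule on 1 array, brought the counts to 6 higher in epididymis than in SVF, and 3 higher in epididymis and 7 higher in testis in the comparison of those tissues. The shares of all genes meeting the 4-fold rule or 2-fold on the mean were not computed. The counts under these rules therefore cannot be set against all genes. Median centring changed no count and moved ratios by 0.02, -0.07 and -0.04 log2 units in the 3 comparisons. Every switch kept its sign under each alternative except that of Ldhc and Ldha in epididymis over testis, which was -0.10 directly, -0.54 and 0.34 on single arrays and 1.08 through the third tissue. Leaving out an array moves a mean of 2 by less than 1 SD by construction, so single arrays say nothing about stability here.

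The switches moved by more than 1 SD as follows, with values in the order testis over SVF, epididymis over SVF and epididymis over testis where all 3 moved. Read as natural logarithms, they were 11.27, 4.33 and -8.07 for Pgk2 and Pgk1, 9.87, 3.46 and -7.76 for Gapdhs and Gapdh, 9.21, 3.27 and -7.20 for Pgam2 and Pgam1, and 3.57 for Ldhc and Ldha in epididymis over SVF. The fit over 6 arrays gave 2.74 for Pgk2 and Pgk1 in epididymis over SVF, 7.15 and -5.07 for Gapdhs and Gapdh in testis over SVF and epididymis over testis, 2.08 for Ldhc and Ldha in epididymis over SVF, and 6.67 for Pgam2 and Pgam1 in testis over SVF. Through the third tissue alone, Pgk2 and Pgk1 gave 2.22 in epididymis over SVF and -4.81 in epididymis over testis. Gapdhs and Gapdh gave 7.77, 1.47 and -4.45, Pgam2 and Pgam1 gave 7.25, 1.39 and -4.12, and Ldhc and Ldha gave 1.29 in epididymis over SVF. The cause of these shifts was not tested.

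Single Gapdh spots moved the switch in the comparisons that hold testis. The spots of the highest and the lowest mean ratio were picked anew in each comparison. With the highest spot the Gapdhs and Gapdh switch was 3.63 in testis over SVF and -6.22 in epididymis over testis. With the lowest spot it was 8.16 and -1.55. The highest spot in testis over SVF and the lowest in epididymis over testis were the same spot. It lay more than 1 log2 unit from the spot median on all 6 arrays. That spot reversed Gapdh itself, to 1.18 in testis over SVF and -2.06 in epididymis over testis. It left 1 member higher in epididymis than in testis. The switch in testis over SVF, whose SD was 0.03, was 6.87 with near spots and 6.80 with each run of probe numbers centred, both chosen after seeing the data. With runs centred, Gk2 in testis over SVF was 5.64 ± 1.06 in place of 6.0 ± 0.28.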

Other observations

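Of the 257 Gapdh spots, 246 lay within 1 log2 unit of the spot median on every array, and 11 did not on at least 1 array. Of these 11, 5 departed on 1 array, 3 on 2 arrays, 2 on 4 arrays and 1 on all 6. The spot that departed on all 6 arrays read 1.96 and 0.40 in testis over SVF, -0.98 and 0.72 in epididymis over SVF, and -2.74 and -1.37 in epididymis over testis, so it placed Gapdh higher in testis than in epididymis. Without the 11 spots the Gapdhs and Gapdh switch in testis over SVF was 6.87 in place of 6.84. Every other gene of the set rests on 1 spot, for which such a departure could not be seen.

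Actb, the cytoplasmic actin gene, had 305 spots and showed the same order by place as Gapdh in epididymis over SVF. Its median log2 ratio there was -0.40, -0.32, -0.19 and -0.07 from the first to the fourth place on the first array, and -0.66, -0.78, -0.94 and -1.13 on the dye-exchanged array. Over all its spots, Actb stood at medians of -2.02 and -2.63 in testis over SVF, so both genes that are often used as constant references were lower in testis than in SVF.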
